A study of Mus musculus with 4 samples.

Results

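Pagr1a and 9 genes close to it on mouse chromosome 7 were read on 4 arrays of fibroblasts with and without PA1, the protein that Pagr1a encodes. The 10 genes were taken by annotated symbol from 1 stretch of the chromosome (Taok2, Tmem219, Kctd13, Sez6l2, Cdipt, Mvp, Pagr1a, Prrt2, Maz and Kif22, in this order, with Asphd1 and Cdiptos lying among them as non-members), and the arrays carried 21 probe sets for them among 45037 that were not controls. A probe set is a group of short oligonucleotides designed to read a transcript, or several that share sequence, and its signal is an intensity in arbitrary units. Immortalised mouse embryonic fibroblasts (MEFs) with the PA1loxP/loxP allele, in which loxP sites mark the DNA that Cre recombinase removes, were infected with a retrovirus. The virus carried Cre in the cells labelled PA1 -/- (knockout, 2 arrays) and nothing beyond the vector in those labelled PA1 +/+ (wild type, 2 arrays), so the wild-type cells also carry the conditional allele, were infected and were selected with puromycin. The labels number the arrays of each genotype 1 and 2. They do not say whether these were separate cultures, whether the infected cells were cloned or which part of Pagr1a the allele removes, so p-values measure the spread between these arrays, which may in part be technical. Each probe set was therefore also compared within number 1 and within number 2.

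PA1 binds PTIP and is a subunit of the complexes built on the histone methyltransferases KMT2C and KMT2D, which place methyl groups on histone H3 at enhancers. Its gene is short and lies in a dense row of genes whose products do unrelated work: Mvp and Prrt2 are next to it on either side, followed by Cdipt and Maz. The matching stretch of the human genome is a known recurrent copy number region. Because transcription units in such a row can overlap or share control DNA, the neighbours show how far a deletion at Pagr1a was accompanied by differences next to it.

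The arrays resembled fibroblasts and differed by replicate number. All 8 fibroblast markers examined, such as Col1a2 and Vim, were among the brighter 50% of probe sets, with signals from 94.6 to 29116, while of 11 measured markers of other cell types only Epcam, Cd68 and Tubb3 were. The summed signal of the 8 fibroblast markers was 87389 to 108982 in wild-type and 79170 to 88851 in knockout arrays. Among them, Col1a2 and Pdgfrb were lower in the knockout without overlap, and in the others the genotypes overlapped. For 3 neuronal markers the sum was 491 to 1014 in wild-type and 207 to 479 in knockout arrays. Tubb3 made up most of it and was lower in both knockout arrays, whereas the dim Rbfox3 (19.2 and 12.4 against 51.3 and 39.3) and Syp (32.1 and 27.7 against 43.6 and 45.6) were higher in both. The sum was 181 to 235 and 137 to 177 for 2 blood markers, 171 to 313 and 147 to 223 for 3 epithelial markers, and 48.7 to 58.7 and 60.0 to 72.1 for 3 endothelial markers. The part of these differences in the results below was not tested. Log2 signals correlated at 0.971 and 0.977 between the 2 genotypes at numbers 1 and 2, and at 0.918 and 0.920 between the 2 arrays of wild type and of knockout. In such bulk samples, fewer cells that express a gene and less RNA of it per cell cannot be told apart.

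The sequence before the start of Pagr1a is shown because its signal differed most among the 10 genes. That of Kif22 is shown because a probe set of this neighbour, though not its others, had a large difference. RefSeq (GRCm38.p6) gave windows of 300 bases, 250 before to 50 after the start, for 7 of the 10 genes, with 2 starts for Maz. Both windows below lie on the minus strand and are written 5′ to 3′. That of Pagr1a (chr7:127017303-127017602) runs into the annotated gene Prrt2, and that of Kif22 (chr7:127042371-127042670) touches no other annotated gene. Capitals mark GCATGCGC or its reverse complement GCGCATGC, the core of the motif known for the transcription factor NRF1.
Pagr1a: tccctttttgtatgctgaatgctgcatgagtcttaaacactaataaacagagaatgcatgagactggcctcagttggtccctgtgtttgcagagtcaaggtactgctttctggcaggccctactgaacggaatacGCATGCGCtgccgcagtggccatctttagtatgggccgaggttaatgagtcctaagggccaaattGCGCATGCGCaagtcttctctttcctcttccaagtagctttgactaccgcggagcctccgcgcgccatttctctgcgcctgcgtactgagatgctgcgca
Kif22: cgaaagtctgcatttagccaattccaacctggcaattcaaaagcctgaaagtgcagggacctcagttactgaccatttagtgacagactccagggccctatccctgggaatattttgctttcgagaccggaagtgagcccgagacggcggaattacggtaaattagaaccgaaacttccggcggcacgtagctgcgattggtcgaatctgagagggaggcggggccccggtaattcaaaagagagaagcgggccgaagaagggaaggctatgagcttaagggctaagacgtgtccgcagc

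The window of Pagr1a held this core at 2 places and that of Kif22 at none. Taok2 and Tmem219 each held it at 1 place, so 3 of the 8 windows had it, beside 2.71% of 32851 windows of the same length in the table. The longer palindrome, in which both orientations of the core overlap, stood in all 3 genes, and the stretches around the 4 places are set side by side to show it.
Pagr1a, chr7:127017450-127017477: aacggaatacGCATGCGCtgccgcagtg
Pagr1a, chr7:127017383-127017412: gggccaaattGCGCATGCGCaagtcttctc
Tmem219, chr7:126898325-126898354: cgtggtcaccGCGCATGCGCgtctgaatgg
Taok2, chr7:126884924-126884953: agcgtggcggGCGCATGCGCcacagctctc

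All 4 stretches are on the minus strand. The motif was chosen after the windows had been read, and a match describes letters, not binding. The 5-base CCAAT box (CCAAT, both strands) was in 3 of the 8 windows, those of Taok2, Tmem219 and Kif22, beside 37.4% of all windows. The GC box (GGGCGG, both strands) was in 5, those of Tmem219, Kctd13, Mvp and both starts of Maz, beside 35.7%.

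Pagr1a read far lower in the knockout cells by each of its 3 probe sets. Probe set 1449618_s_at gave 1340 and 1389 in the wild-type arrays numbered 1 and 2, and 108 and 113 in the knockout arrays. Probe set 1424014_at gave 516 and 517 against 38.5 and 38.2. Both wild-type arrays lay far above both knockout arrays, and arrays of 1 genotype nearly coincided. The dimmest, 1449617_at, gave 178 and 165 against 9.21 and 7.89, so its knockout signals stood at percentiles 18.9 and 18.2 of their arrays. The remaining signal in the knockout arrays was 8.03% and 8.17% of wild type at numbers 1 and 2 by the first probe set, 7.47% and 7.38% by the second, and 5.19% and 4.78% by the dimmest. The first and the dimmest probe sets were designed from the same transcript record and the second from another. Their places within the gene were not mapped, so the 3 cannot be taken as independent readings of different parts of it. Whether they lie in the part that Cre removes is not known here, and a probe set outside it would not check the deletion.

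On the scale used for testing, log2(signal + 9.96), the differences (knockout minus wild type) of the first and second probe sets were -3.51 (SE 0.249, 95% interval -4.16 to -2.86) and -3.45 (SE 0.274, -4.16 to -2.73). With genotype as the only term, limma gave unadjusted p-values of 4.55e-05 and 7.78e-05. Neither passed once limma's p-values were adjusted over all 22519 tested probe sets (Benjamini-Hochberg, adjusted p = 0.876 for both). By its mean log2 value over the 4 arrays, the dimmest probe set lay below the level, equal to a signal near 62.8, from which probe sets were tested. The second was tested only through its high wild-type signals, as its knockout signals of 38.5 and 38.2 were below that level. Within the numbers, the 3 probe sets differed by -3.52, -3.44 and -3.29 at number 1 and by -3.50, -3.45 and -3.29 at number 2. Number 2 minus number 1 was at most 0.10 in size for any of them within either genotype, so the distance between genotypes far exceeded that between numbers. Among 10714 genes, each read through its brightest tested probe set, Pagr1a had a lower difference than all but 2.

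**Figure D1:**
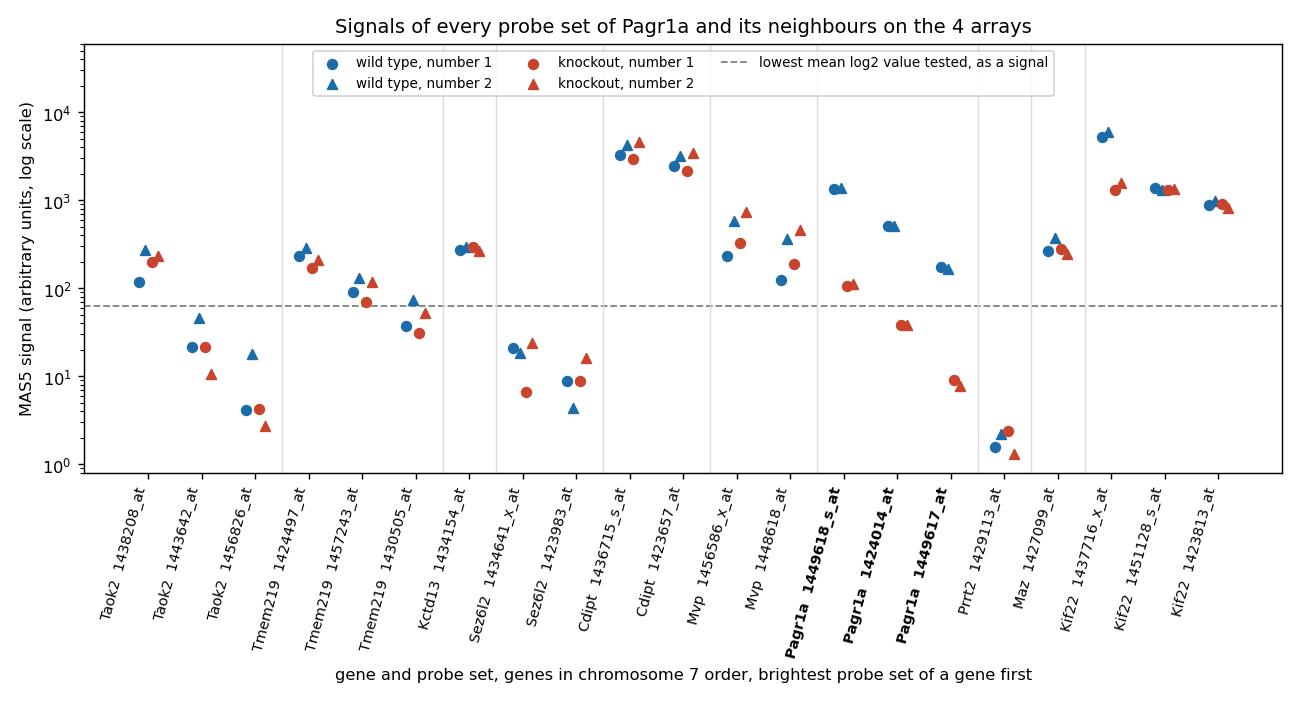
Signals (log axis, arbitrary units) of the 21 probe sets on the 4 arrays, genes in chromosome order. Circles are number 1 and triangles number 2, blue is wild type and red knockout, and the dashed line is the signal, near 62.8, that equals the lowest mean log2 value tested. All 3 Pagr1a probe sets and 1 of Kif22 have both red points well below both blue points.

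Kif22 encodes a kinesin that moves chromosome arms in mitosis, and its 3 probe sets did not give the same result. Probe set 1437716_x_at read 5253 and 6015 in wild-type and 1305 and 1566 in knockout arrays, with no overlap between genotypes. This is 24.8% and 26.0% of wild type at numbers 1 and 2. Its log2 difference was -1.97 (SE 0.216, 95% interval -2.53 to -1.40), with -2.00 at number 1 and -1.93 at number 2, and limma gave an unadjusted p of 0.000343 and an adjusted p of 0.9998. By contrast, 1451128_s_at read 1401 and 1320 against 1324 and 1339, a difference of -0.03 (95% interval -0.60 to 0.54). Probe set 1423813_at read 895 and 998 against 915 and 813, a difference of -0.13 (-0.76 to 0.50). The genotypes overlapped in both. The interval of 1437716_x_at lay wholly below those of the other Kif22 probe sets, though the contrast between probe sets was not tested. These last 2 were designed from 1 transcript record and the first from another. In the maker's naming, the ending _x_at marks a probe set with oligonucleotides that also match other transcripts. Probe sets of Mvp and Sez6l2 carry it too. Whether such a transcript gave part of the signal was not tested. Matches of the other probe sets to further transcripts, among them 1451128_s_at here and 1449618_s_at of Pagr1a, were not examined either.

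The members were set against all tested probe sets. With genotype as the only term, 0 of the 14 tested member probe sets passed after adjustment, as did 0 of 22519 (0%) in all. A fit that also holds the number as a term called some and is given in the closing section. An unadjusted limma p under 0.05 was reached by 3 members, 2 of Pagr1a and 1437716_x_at of Kif22, beside 1.95% of all. The same 3 were at least 2-fold lower in the knockout at number 1 (background 2.57%), at number 2 (1.9%) and at both (0.697%). Of them, 1424014_at of Pagr1a was tested only through its high wild-type signals. None of the 14 was at least 2-fold higher at both numbers (0.151% of all). Leaving Pagr1a aside, 1 of 12 neighbour probe sets was thus 2-fold lower at both numbers, and the other 11 were within 2-fold at both. Knockout values lay below wild-type values without overlap for 4 of the 14, against 12.3% of all probe sets, and above them for 0, against 15%. The fourth of these was a probe set of Tmem219. With 2 arrays a genotype, the smallest p of an exact permutation test is 0.333, so none is quoted for single genes.

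**Figure D2:**
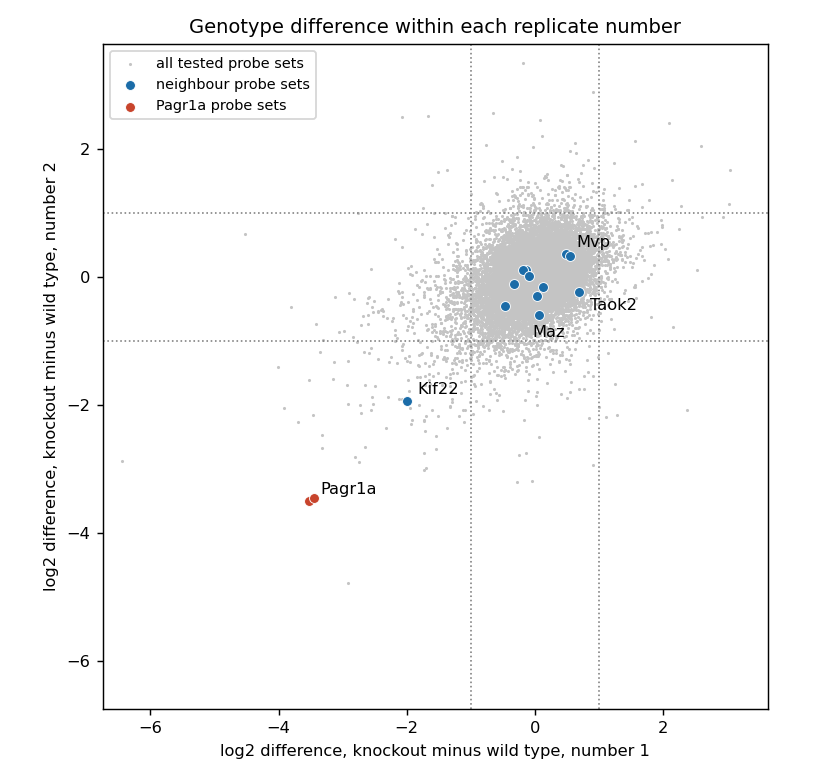
Log2 difference between knockout and wild type at number 1 (x axis) and number 2 (y axis) for all 22519 tested probe sets (grey), neighbour probe sets (blue) and Pagr1a (red). Dotted lines mark a 2-fold difference. The Pagr1a points lie near -3.5 on both axes, 1 Kif22 point near -2 on both, and the other 11 neighbour points inside the dotted square.

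Of the genes next to Pagr1a, Mvp read somewhat higher in the knockout cells at both numbers, but differed more between numbers than between genotypes. It encodes the major vault protein, the main component of large ribonucleoprotein particles of the cytoplasm. Probe set 1456586_x_at gave 234 and 582 in wild-type and 332 and 749 in knockout arrays, and 1448618_at gave 125 and 369 against 189 and 466. In both, the wild-type array numbered 2 exceeded the knockout array numbered 1, so the genotypes overlapped. The differences were 0.49 and 0.36 at numbers 1 and 2 by the first probe set and 0.56 and 0.33 by the second, while number 2 exceeded number 1 by 1.15 to 1.49 within a genotype. In limma the brightest probe set differed by 0.42 (SE 0.609, 95% interval -1.17 to 2.01, adjusted p = 0.9998), an interval that holds a 2-fold difference in either direction. The sign of this value turned when the wild-type array numbered 1 (-0.22) or the knockout array numbered 2 (-0.15) was left out.

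On the other side, Prrt2, which encodes a protein of presynaptic membranes, could hardly be read. Its only probe set, 1429113_at, is annotated to both Prrt2 and Pagr1a and gave 1.56 and 2.23 in wild-type and 2.43 and 1.32 in knockout arrays. These signals were below the 6th percentile of every array, the genotypes overlapped, and the value belongs to neither gene alone. This probe set thus showed none of the difference seen in the other Pagr1a probe sets, at a level where no difference could be read.

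Maz encodes a zinc finger transcription factor that binds GC-rich promoters. Its 1 probe set gave 267 and 375 in wild-type and 280 and 245 in knockout arrays, so the genotypes overlapped and the numbers disagreed in sign (0.07 and -0.60). The difference was -0.26 (SE 0.304, 95% interval -1.06 to 0.53, limma adjusted p = 0.9998), and leaving out the wild-type array numbered 1 or 2 moved it to -0.50 or -0.024. Cdipt, which encodes the enzyme that makes phosphatidylinositol, had bright probe sets whose differences were close to 0. Probe set 1436715_s_at gave 3282 and 4263 against 2991 and 4628, a difference of -0.01 (SE 0.296, 95% interval -0.78 to 0.76). Probe set 1423657_at gave 2476 and 3162 against 2182 and 3429, a difference of -0.03. Both read lower in the knockout at number 1 and higher at number 2. Kctd13, an adaptor of the CUL3 ubiquitin ligase, behaved alike in size, with 274 and 299 against 299 and 268 and a difference of -0.01 (SE 0.262, 95% interval -0.70 to 0.67). Their signs depend on the scaling, as median scaling gave 0.049 for Cdipt and 0.042 for Kctd13.

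Tmem219 encodes a membrane receptor for the insulin-like growth factor binding protein IGFBP-3, and its 3 probe sets all read lower in the knockout at both numbers. The brightest, 1424497_at, gave 237 and 290 in wild-type and 170 and 209 in knockout arrays, without overlap. Its knockout signal was 71.7% and 72.1% of wild type, and its difference was -0.46 (SE 0.291, 95% interval -1.22 to 0.30, limma adjusted p = 0.9998). Probe set 1457243_at gave 90.1 and 130 against 69.8 and 120, and the untested 1430505_at gave 37.5 and 74.5 against 31.0 and 52.5. In these the genotypes overlapped, because number 2 read higher than number 1 in both genotypes. All 3 thus leaned the same way at less than 2-fold, and the test did not call the 2 that were bright enough for it.

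Taok2 encodes a protein kinase upstream of p38 and JNK. Its brightest probe set, 1438208_at, gave 119 and 273 in wild-type and 198 and 231 in knockout arrays, and the numbers disagreed in sign (0.69 and -0.23). The limma difference was 0.23 (SE 0.459, 95% interval -0.97 to 1.43), and it turned to -0.34 without the wild-type array numbered 1. The dim 1443642_at gave 21.6 and 46.5 against 21.4 and 10.6, and 1456826_at gave 4.18 and 17.9 against 4.25 and 2.75. At number 1 the genotypes read alike in both dim probe sets, and at number 2 the wild-type array was the highest of the 4 and the knockout array the lowest. Sez6l2, a gene for a membrane protein found mainly in neurons, was dim on all arrays. Its probe set 1434641_x_at gave 21.2 and 18.6 against 6.74 and 24.0, and 1423983_at gave 8.997 and 4.422 against 8.77 and 16.2. Neither was tested, the genotypes overlapped in both, and the numbers disagreed in sign.

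Among the 12 tested neighbour probe sets, 3 were lower in the knockout at both numbers, 2 were higher at both and 7 changed sign between the numbers. Of all 22519 tested probe sets, 29.7% were lower at both, 33.1% higher at both and 37.2% changed sign. The 7 neighbour genes with a tested probe set had a median difference of -0.01, with 2 above and 5 below 0. Over all 10714 genes the median was 0.02, with 5710 above and 5004 below 0. Within numbers 1 and 2 the neighbour median was 0.07 and -0.23, against 0.04 and 0.00 for all genes. Without Kif22 the neighbour median was also -0.01.

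Of 15 other genes listed for the interval, 14 had a probe set annotated to 1 symbol and 6 a tested one. Asphd1, Zg16, Qprt and Spn, which lie nearer to Pagr1a than Taok2 does in the order of protein-coding genes, were too dim to test. The 6 tested genes lie beyond Taok2, and none had a difference as large as that of Pagr1a. Of them, 0 passed limma before (unadjusted p under 0.05) or after adjustment, beside 231 and 0 of all 10714 genes. The median difference of the 6 was -0.28, with 2 above and 4 below 0, beside 5710 above and 5004 below among all genes. Ypel3 read 676 and 1204 in wild-type and 328 and 803 in knockout arrays (-0.80, SE 0.543). Coro1a, which encodes an actin-binding protein of blood cells, read 206 and 235 against 156 and 123 (-0.63, SE 0.294), without overlap. The summed signal of the 2 blood markers, 181 to 235 in wild-type and 137 to 177 in knockout arrays, was lower too, and its part in the Coro1a value was not tested. Hirip3, whose product binds the histone chaperone HIRA, differed by -0.41, and Ppp4c, the catalytic subunit of protein phosphatase 4, by -0.16. The glycolytic enzyme gene Aldoa differed by 0.02 and Ino80e, a subunit of the INO80 chromatin remodeller, by 0.01. All these values are of the brightest tested probe set of a gene. Other tested probe sets of Aldoa differed by 0.03 to 0.22, and those of Ino80e by 0.08 and 0.27. Of the dimmer, untested Coro1a probe sets, 1455269_a_at was lower at both numbers and 1435288_at changed sign. By their brightest tested probe sets, the lower values of Ypel3, Coro1a, Hirip3 and Ppp4c held at both numbers. Among all 10714 genes, 3134 were lower at both. The median of this list fell to -0.53 without the wild-type array numbered 1 and was -0.027 without the wild-type array numbered 2, so single arrays set its size.

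**Figure D3:**
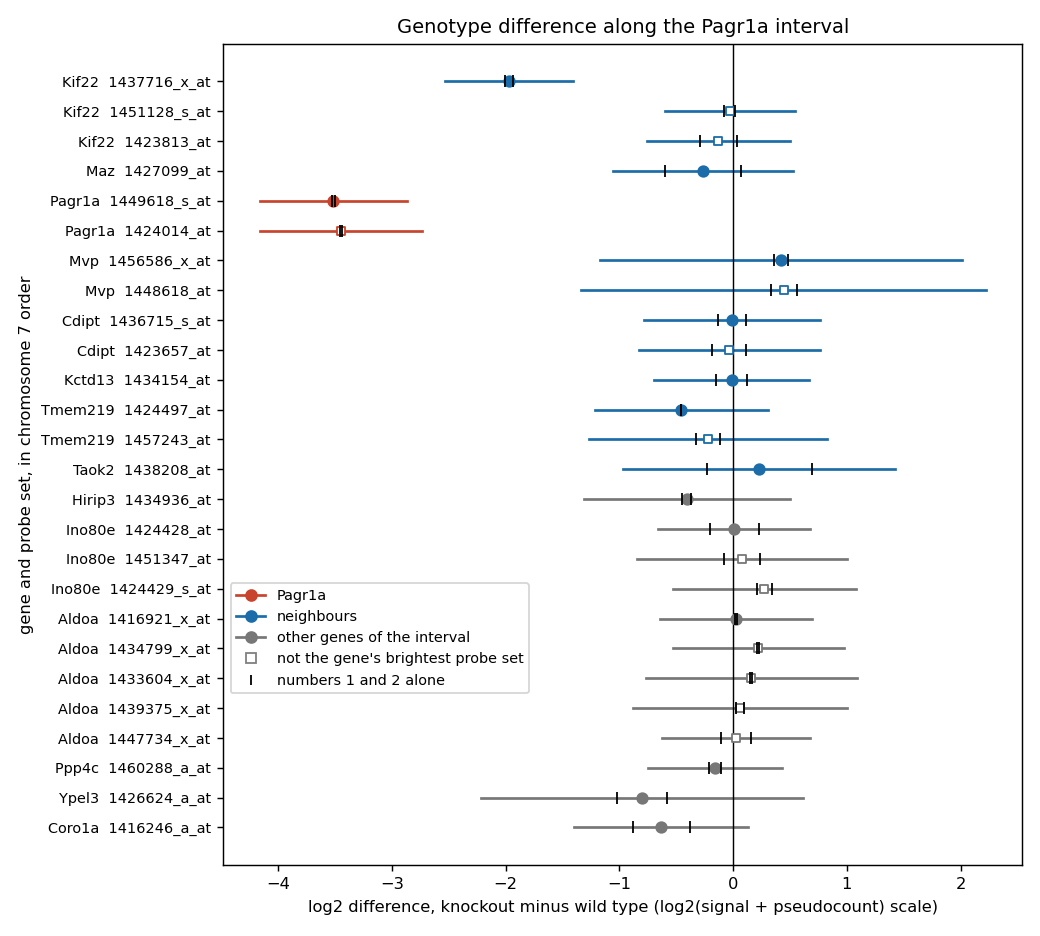
Log2 difference, knockout minus wild type, with limma's 95% interval (bars) for every tested probe set along the interval, in chromosome order. Ticks show numbers 1 and 2 alone, filled circles the brightest probe set of a gene and open squares the others. The intervals of both Pagr1a probe sets and of 1437716_x_at of Kif22 lie below 0, and all others include it.

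Among the 9 genes for partner subunits in the KMT2C or KMT2D complex, all tested, 0 passed, 6 were above and 3 below 0, and the median difference was 0.28. Over all 10714 genes, 0 passed, 5710 were above and 5004 below 0, and the median was 0.02. Over the 4 arrays, the genes outside the group with the profile nearest to that of Pagr1a were Il1rn, Cdc42ep2, Gap43, Plac8 and Slc1a3. Nearness was the Euclidean distance between log2 values centred on each gene's mean, and the distances were 0.88, 0.91, 1.24, 1.26 and 1.39. In wild type, each of these genes varied more between numbers than Pagr1a. Il1rn read 731 and 386 in wild-type and 64.2 and 52.2 in knockout arrays, and Slc1a3 read 163 and 211 against 43.4 and 17.9. Both knockout signals of Slc1a3, and that of Il1rn at number 2, were below the level near 62.8 from which probe sets were tested. Slc1a3 was thus tested only through its high wild-type signals.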

How the data were processed

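Biotin-labelled total RNA was hybridised to the arrays. The authors deposited linear intensities, 1 per probe set, and the submitters' processing notes name MAS5 (version and settings not given in the sources used here). On each array, the mean signal without the lowest and highest 2% of probe sets was 500.0, so a change shared by most genes would not show. Array medians ran from 63.2 to 66.4. Precision is limited by the small number of arrays.

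The 64 controls were left out. Names came from the platform annotation, and all 20 member probe sets with 1 symbol matched RefSeq gene identifiers (GRCm38.p6, used for names, gene order and the printed windows). Values were log2(signal + 9.96), the pseudocount being the 20th percentile of all signals, so fold changes of dim genes are understated. The brighter 50% of probe sets, by their mean log2 value (22519), were tested with limma 3.58.1 in R 4.3.3 across all of them (eBayes with a trend, 2-sided, Benjamini-Hochberg, threshold 0.05) with genotype as the only term and 2 residual degrees of freedom. This left 14 of the 21 member probe sets tested, while the other 7 are given by value. Within a number, 1 array stands against 1, with no test. A probe set bright in 1 genotype only can pass this filter because of that genotype, as 1424014_at of Pagr1a did. The fit was also run on simulated data, whose outcome is not given here and is not used in the results. Figures used matplotlib 3.10.9.

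The members and lists were chosen with earlier results of these data known. The rule named every member probe set, other interval genes with a tested probe set, partners by count, and the 5 genes nearest to Pagr1a in profile. Mapk3 of the interval list and 1 gene of the marker lists were not analysed here. Alternatives were quantile and median scaling, other pseudocounts, filters and variance models, a threshold of 0.01, means of probe sets, a replicate block, and fits without 1 array each.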

Additional observations from a re-analysis of the deposited data

How the results depend on the processing

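The Pagr1a difference lay between -3.61 and -3.03 under every alternative run, and its limma adjusted p stayed between 0.504 and 0.99997 except with the number as a term. With the replicate block it was -3.51 with an adjusted p of 1.90e-05, and 3 member probe sets passed in place of 0 (2 of Pagr1a and 1437716_x_at of Kif22, adjusted p = 9.30e-05), as did 447 of 22519 in all in place of 0. The deviations of same-numbered arrays from their group means correlated at 0.805 across probe sets, but there are only 2 such pairs and the labels do not say what the number marks, so the block stands here alone. The count of 2 member genes at least 2-fold lower at both numbers was the same under each scaling, pseudocount and filter. It read each gene through its brightest tested probe set, so Kif22 counted by 1437716_x_at alone. The other Kif22 probe sets, 1451128_s_at and 1423813_at, differed by -0.03 and -0.13 in the main fit.

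Near 0, signs followed the settings. Cdipt was at 0.016 after quantile normalization and 0.049 after median scaling, and Kctd13 at 0.042 after the latter. Leaving out 1 array gave ranges of -0.32 to 0.31 for Cdipt, -0.0895 to 0.064 for Kctd13, -0.22 to 1.06 for Mvp, -0.34 to 0.80 for Taok2 and -0.34 to 0.048 for the neighbour median. The median of the other interval genes ranged from -0.53 to -0.027 in this way, was -0.20 without a filter and -0.16 with the upper 30% kept. A fit without 1 array also carries part of the difference between numbers. Read through their brightest tested probe sets, Kif22 (1437716_x_at), Maz and Tmem219 kept their sign under each alternative. The ranges were -2.10 to -1.84, -0.50 to -0.024 and -0.60 to -0.31. Signals near background limit what can be read for Prrt2 and Sez6l2.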
